A study of Mus musculus with 6 samples.

Results

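The contractile genes of smooth muscle were compared between mesenchymal stem cells (MSC) and neural crest stem cells (NCSC) grown from adult mouse bone marrow. The set held 10 genes, namely the actins Acta2 and Actg2, the calponins Cnn1, Cnn2 and Cnn3, the transgelins Tagln and Tagln2, the myosin light chain Myl9, its kinase Mylk, and smoothelin, Smtn. Members were all probe sets annotated to 1 of these genes and no other, which gave 21 of the 34945 probe sets with 1 gene on the array. Of these, 18 passed the filter on low values, and all 10 genes kept at least 1 probe set.

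Each cell type was measured on 3 Affymetrix arrays. Both came from female mice of 10 weeks with the background C57BL/6 x SV129 and the genotype wnt1/CRE-R26R-lacZ, in which a Cre recombinase under Wnt1 control switches on lacZ in cells of neural crest descent. Both were bone marrow stromal cells passaged at least 5 times in Mesencult medium, followed by clonal selection, and neither received a treatment. The series calls the 3 arrays of a cell type biological replicates without giving the number of animals or clones. Every p-value below is thus set against how far these samples vary, and part of that may be technical. A difference between cell types cannot be told apart from one between clones.

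In smooth muscle, myosin pulls on actin filaments once Mylk, myosin light chain kinase, has phosphorylated the regulatory light chain made by Myl9. Calponins, transgelins and smoothelin bind actin filaments and stabilise or tune them, and each family has members tied to the contractile state (Cnn1, Tagln) and relatives found in many cell types (Cnn2, Cnn3, Tagln2). Many of these genes are controlled by serum response factor (Srf) with coactivators of the myocardin family, and cultured stromal cells and myofibroblasts are known to switch part of this programme on, with Acta2 as the usual marker.

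The arrays of a cell type correlated at 0.985 to 0.997 across the 18640 kept probe sets, against 0.797 to 0.813 between cell types. MSC 2 and NCSC 3 stood apart from their replicates, with 2.85% to 2.95% and 4.73% to 4.93% of the kept probe sets more than 2-fold away, whereas the other pairs had 0.52% and 0.456%. Of 8 crest markers 5 were tested, and Sox10, Ngfr, Foxd3, Erbb3 and Cdh19 were all higher in NCSC. All of these but Sox10 exceeded a log2 intensity of 4 on NCSC arrays only. They passed the filter through NCSC alone and had to differ. S100b, below the filter, read 7.72 and 7.29 on NCSC 1 and 2 but 2.15 on NCSC 3 and in MSC. Of 8 tested stromal markers 4 were higher and 4 lower in NCSC. Among all tested genes 34.3% were called higher, 28.7% lower and 62.9% in either direction. Eng (mean 5.61 in MSC, 10.30 in NCSC) and Nt5e (3.00, 8.51) were among the higher markers, and Nt5e passed the filter through NCSC alone. Vcam1 (12.61, 8.57) and Pdgfra (9.61, 6.44) were among the lower, and Lepr was at 2.32 on all arrays. The floor of the deposited values was 2.12 on the log2 scale. The defining genes of mature smooth muscle, Myh11 (its myosin heavy chain) and Myocd (myocardin), stayed at or next to that floor on all arrays of both cell types.

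Contractile genes were mostly lower in NCSC, by very different amounts. Myl9, Cnn1 and Actg2 were bright in MSC and lower in NCSC by at least 878-fold, at least 318-fold and 197-fold. By their brightest kept probe sets, Acta2, Tagln, Smtn and Mylk fell between 2.48-fold and 4.67-fold, Cnn2 by 1.66-fold and Tagln2 by 1.36-fold. The dimmer kept set of Acta2 was at least 19.8-fold lower. None of the 6 probe sets of Cnn3 was called. In limma's test 11 of the 18 kept probe sets were called lower (adjusted p under 0.05) and 0 higher, against 27.2% and 33% of all kept probe sets, or 60.1% in either direction. At an unadjusted p under 0.05, limma found 0 higher as well. By gene, represented by its brightest kept probe set, 9 of 10 were lower, 7 of them at least 2-fold, against 28.7% and 14% of the 10501 tested genes. Of all tested genes 34.3% were higher and 62.9% were called in either direction. The groups did not overlap in 13 member probe sets, all lower in NCSC, where 30.6% of all kept probe sets were separated downwards, 37.8% upwards and 68.4% in total. The members were chosen with earlier results of these data known, so these counts are a description.

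The median difference, NCSC minus MSC on the log2 scale, was -1.02 over the member probe sets and -1.44 over the genes, against 0.057 and 0.056 over all probe sets and genes tested. Since arrays measure bulk RNA, fewer cells that express a gene and less RNA per cell cannot be told apart. For 3 of the 18 probe sets, those of Cnn1, Myl9 and the dimmer Acta2 set, only MSC arrays exceeded the limit (log2 intensity of 4). These passed the filter through MSC alone and had to differ, and they are among the sets counted as called lower. The other 15 were above the limit on every array.

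**Figure D1:**
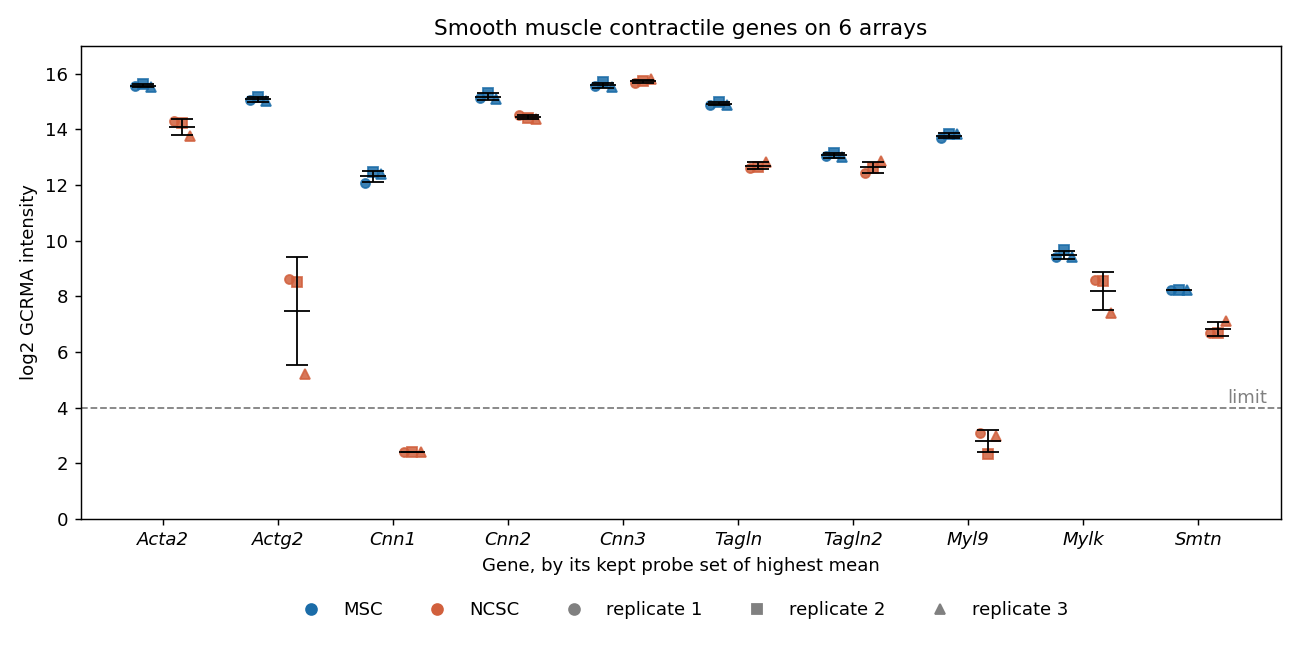
Log2 GCRMA intensity (vertical axis) of the 10 genes, each by its kept probe set of highest mean, on the 3 MSC arrays (blue) and 3 NCSC arrays (orange); black bars are the mean and SD, and the dashed line is the limit of 4. Myl9 and Cnn1 sit below the limit on all NCSC arrays, Actg2 spreads from 5.22 to 8.63 in NCSC, and the points of Cnn3 overlap.

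The promoters of Myl9 and Cnn2 are shown because they hold the strict form of the CArG box, the site bound by Srf, although the genes differed to very unequal degrees. Of the 10 genes 8 had an entry in the RefSeq table of promoters (assembly GRCm38.p6), with 250 bases before and 50 after the start, and Actg2 and Tagln did not. The CArG box was found in 2 of these 8 windows and in 1.63% of 32851 windows of all genes. Stretches below are 5′ to 3′ on the strand of the gene, with capitals for the matches. In Myl9 (chr2:156775264-156775407, plus strand) the capitals mark the CArG box at bases -161 to -152 from the start and a CArG-like element with 1 base of the middle part G or C at -99 to -90. In Cnn2 (chr10:79988400-79988599, plus strand) they mark the CArG box at -56 to -47.
Myl9: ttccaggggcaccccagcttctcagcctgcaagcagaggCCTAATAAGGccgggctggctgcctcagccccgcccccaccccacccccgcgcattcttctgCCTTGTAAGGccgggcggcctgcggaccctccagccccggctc
Cnn2: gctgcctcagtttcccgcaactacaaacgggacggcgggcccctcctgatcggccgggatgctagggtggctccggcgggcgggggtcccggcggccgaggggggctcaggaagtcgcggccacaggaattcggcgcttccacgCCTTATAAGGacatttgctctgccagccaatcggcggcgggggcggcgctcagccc

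The CArG-like form was found in 2 of the 8 windows, those of Myl9 and Acta2, and in 8.5% of all windows. Acta2 held it at bases -84 to -75 and again at -34 to -25 (chr19:34255438-34255467 and chr19:34255388-34255417, minus strand), each shown with its flanks because Acta2 is the usual marker of the programme.
Acta2 upstream element: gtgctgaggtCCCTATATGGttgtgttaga
Acta2 downstream element: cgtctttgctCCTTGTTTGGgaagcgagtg

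The MCAT element CATTCC, bound by the Tead factors, was found on either strand in 4 of the 8 windows, those of Acta2, Mylk, Smtn and Tagln2, and in 14.7% of all windows. The TATA box TATAAA was in 0 of the 8 and in 13.6% of all. Within a member's window no match overlapped another. The windows of Cnn1 and Cnn3 held none of these motifs. The matches are letters in a window and not measured binding.

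Both actins, which form the thin filament, were lower in NCSC. The probe set of Actg2, the enteric smooth muscle actin, read 15.06, 15.17 and 15.01 (log2 intensity) on MSC 1, 2 and 3 and 8.63, 8.52 and 5.22 on NCSC 1, 2 and 3. Every NCSC array was at least 6.38 below every MSC array, and NCSC 3 differed from the mean of the other NCSC arrays by -3.36. The difference was -7.62 ± 0.91 (SE; limma, adjusted p = 0.000686), or -6.51 without NCSC 3.

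Acta2, the vascular smooth muscle actin, was bright in both cell types by its brightest probe set, 1416454_s_at. That set read 15.57, 15.64 and 15.52 in MSC and 14.29, 14.24 and 13.75 in NCSC. The groups were separated by 1.23 and differed by -1.49 ± 0.16 (limma, adjusted p = 0.000414). The other kept set, 1444105_at, read 8.04, 8.73 and 8.16 in MSC and 2.76, 2.67 and 2.59 in NCSC, below the limit, so that it was at least 19.8-fold lower. Both kept sets of Acta2 were lower in NCSC, by unequal amounts. In Affymetrix naming the suffix _s_at marks a set whose probes match several transcripts, and whether the brighter set also reads another actin was not tested. The remaining set, 1456658_at, reached 4.16 on MSC 2 only and was not tested.

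Among the calponins, which bind actin and restrain the myosin motor, the response ran from signal under the limit in NCSC to no called difference. The smooth muscle calponin Cnn1 read 12.08, 12.47 and 12.38 in MSC and 2.38 on all NCSC arrays. An identical value on 3 arrays was taken as a floor of that probe set, and the fold of at least 318 is counted against the limit of 4 (limma, adjusted p = 5.34e-08). The Cnn1 set passed the filter through MSC alone and had to differ, so the p-value is no support.

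Cnn2, found in many cell types, read 15.12, 15.32 and 15.09 in MSC and 14.53, 14.43 and 14.37 in NCSC. The groups did not overlap, with a gap of 0.56, and the difference was -0.73 ± 0.10 (SE; limma, adjusted p = 0.00119).

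The acidic calponin Cnn3 had 6 kept probe sets, and none of them was called. Its brightest set read 15.55, 15.69 and 15.52 in MSC and 15.67, 15.72 and 15.80 in NCSC, with overlapping groups and a difference of 0.14 ± 0.087 (95% confidence interval -0.07 to 0.35). Over the 6 sets the differences ran from -0.12 to 0.14 and the intervals from -0.35 to 0.35. The groups overlapped in 5 of the 6 sets and were 0.0059 apart in the sixth. The suffix _x_at, which marks possible cross-hybridisation, was carried by 5 of them, and the set without it, 1426724_at, differed by 0.098 ± 0.086.

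Of the transgelins, small actin-binding proteins of the calponin family, both forms were lower in NCSC. Tagln, also known as SM22 alpha and a classical Srf target, read 14.89, 14.99 and 14.89 in MSC and 12.61, 12.65 and 12.83 in NCSC. The groups were 2.05 apart and differed by -2.22 ± 0.095 (SE; limma, adjusted p = 9.55e-06). Its signal in NCSC stayed well above the limit, unlike that of Cnn1 and Myl9.

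Tagln2 fell slightly in both of its kept probe sets. The brighter one read 13.06, 13.16 and 13.00 in MSC and 12.45, 12.60 and 12.86 in NCSC, which left a gap of 0.14 between the groups. Its difference was -0.44 ± 0.13 (limma, adjusted p = 0.0248), and the other kept set gave the same -0.44 ± 0.11 (adjusted p = 0.0167). The brighter set was not called when any MSC array was left out (adjusted p = 0.0666, 0.0678 and 0.0522) or when NCSC 1 (0.0721) or NCSC 2 (0.0751) was, with 0.00176 to 0.0751 over all settings. The other set was not called on leaving out MSC 1 (0.0566), MSC 3 (0.0623) or NCSC 2 (0.0507), with 0.00116 to 0.0623 over all settings. The remaining set of Tagln2 was at the floor on all arrays.

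**Figure D2:**
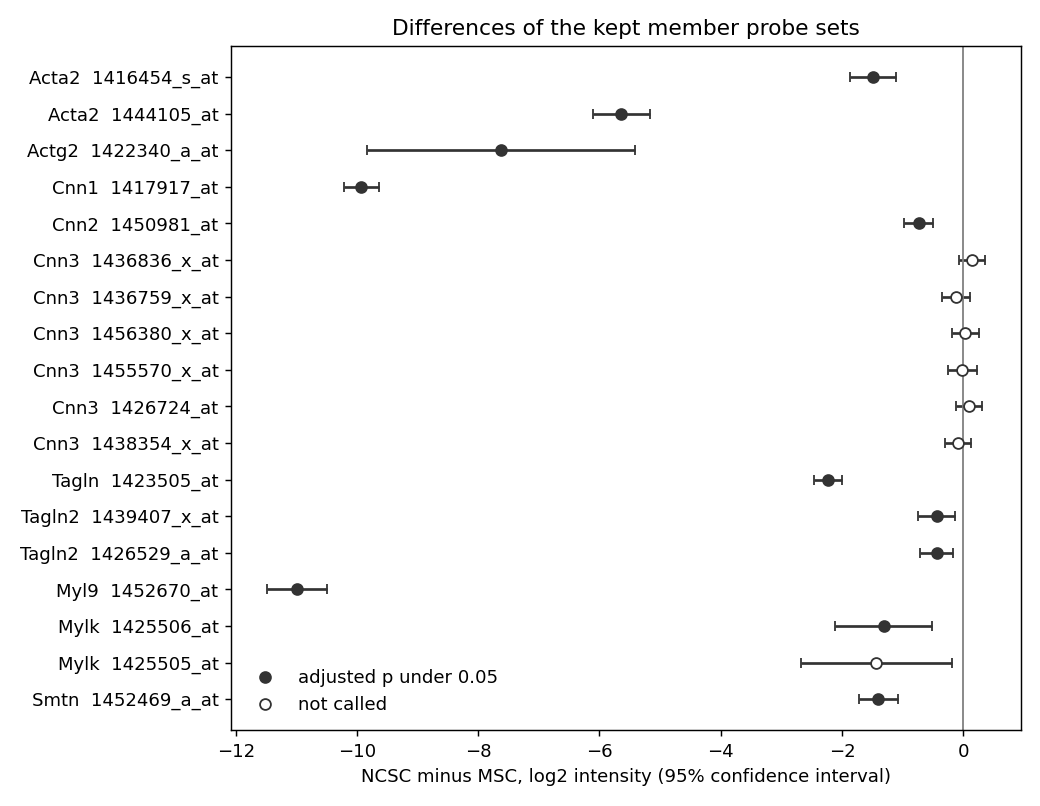
Difference NCSC minus MSC on the log2 scale (horizontal axis) of the 18 kept probe sets of the set, with 95% confidence intervals from limma; filled points were called. The 6 Cnn3 sets lie around 0, and the sets of Myl9, Cnn1, Actg2 and 1444105_at of Acta2 lie below -5.

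On the myosin side of the apparatus both Myl9 and Mylk were lower in NCSC. Myl9, the regulatory light chain of smooth muscle myosin, read 13.68, 13.84 and 13.82 in MSC and 3.07, 2.33 and 2.96 in NCSC. All NCSC values were below the limit. The fold was at least 878 (limma, adjusted p = 2.68e-07). This set passed the filter through MSC alone and had to differ, so the p-value is no support.

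Close relatives of Myl9 that serve non-muscle myosin were measured as well. Myl12a read 15.52, 15.58 and 15.53 in MSC and 15.47, 15.54 and 15.42 in NCSC, a difference of -0.07 ± 0.078 that was not called (95% confidence interval -0.26 to 0.12), and Myl12b rose by 0.88 ± 0.096 (limma, adjusted p = 0.000473). Whether Myl9 and its relatives differ in their change was not tested as a pair.

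Mylk, whose kinase activates the light chain, was lower in NCSC in both probe sets above the limit. Set 1425506_at read 9.40, 9.66 and 9.42 in MSC and 8.59, 8.56 and 7.41 in NCSC, and 1425505_at read 9.34, 9.59 and 9.43 against 8.53, 8.75 and 6.78. No NCSC value reached the lowest MSC value in either set, and NCSC 3 differed from the mean of the other NCSC arrays by -1.16 and -1.86. The first set differed by -1.31 ± 0.33 (limma, adjusted p = 0.0146), a call lost without MSC 2 (0.0502, range 0.000835 to 0.0764). The second differed by -1.43 ± 0.51 and was not called (adjusted p = 0.0505, range 0.00295 to 0.188). Without NCSC 3 the second set was called at the smaller difference of -0.82 (adjusted p = 0.00295), and the first differed by -0.92. The second set was also called without NCSC 2 (-1.80, adjusted p = 0.0387). With all arrays it was called under quantile normalization (limma, adjusted p = 0.0378), aligned array medians (0.0377) and array weights (0.0161), among others. It was not called without the filter (0.188), or on leaving out NCSC 1 (0.0623) or any MSC array. The remaining set of Mylk was at the floor on all arrays.

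Smtn, smoothelin, an actin-binding protein of contractile smooth muscle cells, read 8.22, 8.23 and 8.23 in MSC and 6.68, 6.69 and 7.10 in NCSC. The groups were 1.12 apart and differed by -1.40 ± 0.13 (SE; limma, adjusted p = 0.000258), with NCSC 3 the nearest to MSC.

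The deviation of NCSC 3 had no common direction across the genes. Against the mean of NCSC 1 and NCSC 2 it was lower for Actg2, Mylk and Acta2 (-0.51 for the brightest set) and higher for Smtn (0.41), Tagln2 (0.34), Myl9 (0.26) and Tagln (0.20). MSC 2 was the highest MSC array in 16 of the 18 member probe sets. Sets of the same gene are not independent, and 6 of the 18 were of Cnn3. Over all kept probe sets MSC 2 was the highest MSC array in 33.1% and the lowest in 47.4%. Its lead over the mean of MSC 1 and MSC 3 was at most 0.63, in the dimmer Acta2 set. With both arrays left out, 12 member probe sets and 9 member genes were called lower.

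Paralogues were set against each other by the log2 ratio of their brightest kept sets on each array, with the MSC mean taken as 0, since levels of different probe sets cannot be compared. The ratio of Cnn1 to Cnn2 was -9.28, -9.18 and -9.12 in NCSC, against -0.17 to 0.16 in MSC. With values under the limit set to 4, the shift of -9.19 became -7.58, which is a bound. The ratio of Cnn1 to Cnn3 was -10.01, -10.06 and -10.14 in NCSC, and its bound was -8.45. Cnn2 also fell against Cnn3, by -0.73, -0.88 and -1.01 on the NCSC arrays (mean shift -0.88 ± 0.084, SE). That shift was -0.74 with the mean of the kept probe sets of each gene.

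The ratio of Tagln to Tagln2 shifted by -1.69, -1.79 and -1.87 on the NCSC arrays, a mean of -1.79 ± 0.058 (SE) or 3.45-fold. For the actins, the ratio of Acta2 to Actg2 was 5.16, 5.22 and 8.04 in NCSC, a mean shift of 6.14 ± 0.95. It was 5.19 without NCSC 3 and at most 4.73 with the mean of the kept Acta2 sets, a bound taken with values under the limit set to 4. In each of the 5 pairs the MSC and NCSC ratios did not overlap. In the pairs with Cnn1, its set passed the filter through MSC alone and had to differ, so their separation is no support. Of all kept probe sets taken singly 68.4% were separated, and no such share was computed for ratios. The exact permutation test gave a two-sided p = 0.1 for each pair, which is the smallest that 20 splits of the arrays allow, and p = 0.1 after adjustment over the 5 pairs, so no pair could pass 0.05.

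**Figure D3:**
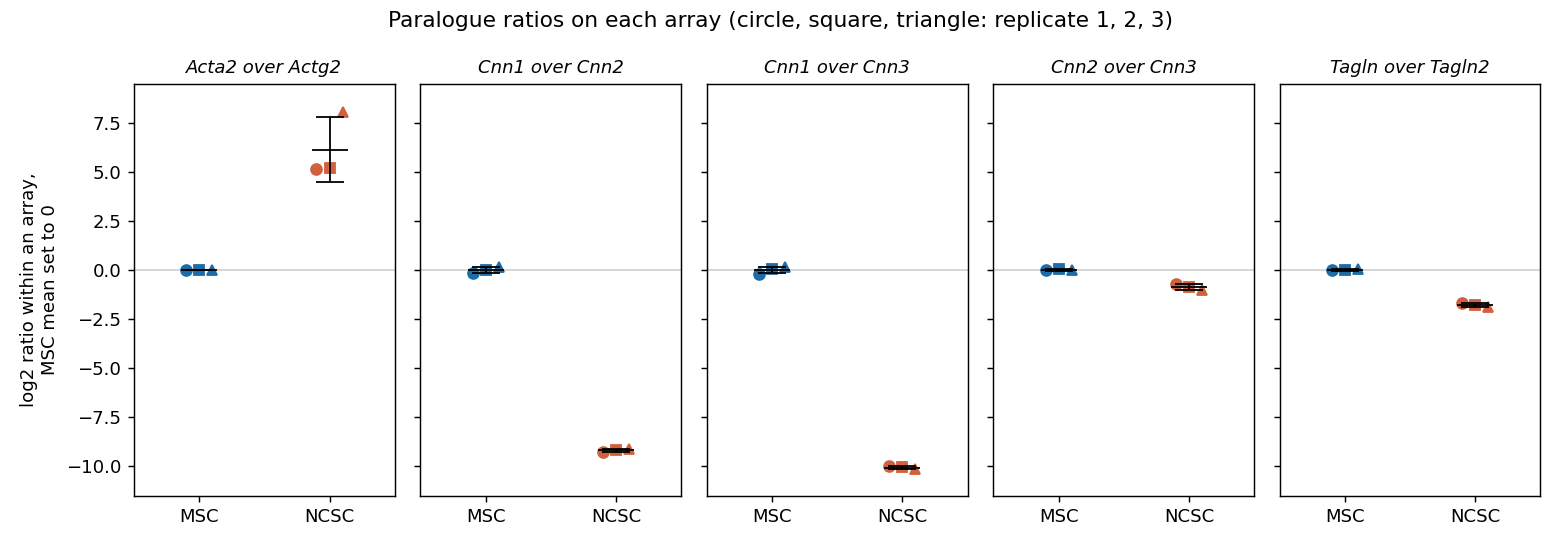
Log2 ratio of 2 paralogues within each array, with the MSC mean of each pair set to 0 (vertical axis), for 3 MSC arrays (blue) and 3 NCSC arrays (orange); black bars are the mean and SD. The 2 Cnn1 ratios shift by -9.19 and -10.07, the Tagln ratio by -1.79 and the Cnn2 over Cnn3 ratio by -0.88, and the Acta2 over Actg2 ratio rises, most on NCSC 3.

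The tested relatives of the members outside smooth muscle were mostly not called. The cytoplasmic actins Actb and Actg1, which form the general cytoskeleton, differed by 0.12 ± 0.081 and -0.12 ± 0.078 in their brightest sets and were not called. For Actb the other kept set differed by -0.27, the mean of both by -0.08, and with array weights the brightest set was called at 0.17 (adjusted p = 0.0431, range 0.0431 to 0.66). The skeletal muscle actin Acta1 read 7.95, 8.26 and 8.15 in MSC and 4.64 on all NCSC arrays, and with that constant taken as a floor it was at least 11.1-fold lower (limma, adjusted p = 1.95e-06). Of 12 relatives 6 were tested, of which 1 was higher, 1 lower and 4 not called. Of all tested genes 34.3% were higher, 28.7% lower and 62.9% called in either direction. The other 6 relatives, among them Tagln3, Actc1 and Mylk2, were under the limit on all arrays.

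Among 24 other contractile and cytoskeletal genes 20 were tested, of which 13 were lower, 4 higher and 3 not called, against 28.7% lower and 34.3% higher among all tested genes. Their median difference was -0.44. Jph2, Lmod1 and Synpo2 exceeded the limit on MSC arrays only, and Des on NCSC arrays only. These passed the filter through that cell type alone and had to differ, and they are among the calls counted. Falls were found for the junctional protein Jph2, at least 56.8-fold, for the non-muscle myosin heavy chain Myh10, at 13.71 ± 0.062 in MSC and 6.68 ± 0.81 in NCSC (SD, n = 3), and for the actin-nucleating leiomodin Lmod1, at least 13.2-fold. The intermediate filament protein synemin, Synm, rose by 4.13 ± 0.26 (SE; limma, adjusted p = 5.46e-05). The integrin Itga8 rose by 1.64 ± 0.35 (adjusted p = 0.0075), and desmin, Des, was at least 1.94-fold higher, a call lost without the filter (adjusted p = 0.0716).

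Of 16 regulators of smooth muscle transcription 15 were tested, of which 11 were lower in NCSC, 2 higher and 2 not called, beside the same 28.7% lower and 34.3% higher of all tested genes. The median was -0.92. Srf itself read 9.84, 9.68 and 9.79 in MSC and 8.65, 8.56 and 8.80 in NCSC, a difference of -1.10 ± 0.097 (limma, adjusted p = 0.000201), and its second set fell by 0.68 on the log2 scale. Its coactivator Mrtfa read 9.88, 9.87 and 9.78 against 8.41, 8.24 and 8.87, a difference of -1.33 ± 0.17 (adjusted p = 0.000915). The related Mrtfb rose by 0.53 ± 0.11 in its brightest set (adjusted p = 0.00662), while its other kept set differed by -0.02.

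The LIM proteins Fhl2 and Fhl1, which partner Srf or its targets in muscle cells, showed the widest gaps of this list. Fhl2 differed by -4.26 ± 0.091 and Fhl1 by -3.56 ± 0.14 (log2, SE; limma, adjusted p = 4.74e-07 and 7.95e-06). Gata6, a factor of vascular smooth muscle, differed by -3.15 ± 0.19. Klf4, a repressor of contractile genes in smooth muscle cells, differed by -2.98 ± 0.17, Prrx1 by -1.80 ± 0.13 and Klf5 by -0.71 ± 0.098, all called lower. Foxo4 rose by 1.88 ± 0.14. Of the Tead factors, Tead1 differed by -0.46 ± 0.083, Tead2 by -0.92 ± 0.24 and Tead3 by -0.77 ± 0.20, and Tead4 was not called (0.29 ± 0.44). Elk1 was not called either (0.51 ± 0.20, adjusted p = 0.072), but was without NCSC 2 (0.68, adjusted p = 0.0287). Tead2 was not called on leaving out MSC 1 (adjusted p = 0.0568), MSC 3 (0.0609), NCSC 1 (0.0541) or NCSC 2 (0.063), with 0.000242 to 0.0819 over all settings. Tead3 was not called on leaving out MSC 1 (0.0622), MSC 3 (0.0594), NCSC 1 (0.0629) or NCSC 3 (0.0507), with 0.00465 to 0.0807 over all settings.

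Among 10 other genes listed as targets of Srf, all tested, 6 were lower, 1 higher and 3 not called, with a median of -0.98. Of all tested genes 28.7% were lower and 34.3% higher. The early gene Egr1 differed by -1.94 ± 0.15, the focal adhesion protein Zyx by -1.83 ± 0.081 and Amotl2 by -1.35 ± 0.14 (SE), while Ankrd1 was at least 14.9-fold higher in NCSC. Ankrd1 exceeded the limit on NCSC arrays only, so it passed the filter through NCSC alone and had to differ. Like the members, the lists of relatives, other contractile genes, regulators and targets were drawn up with earlier results of these data known, so their counts are a description.

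**Figure D4:**
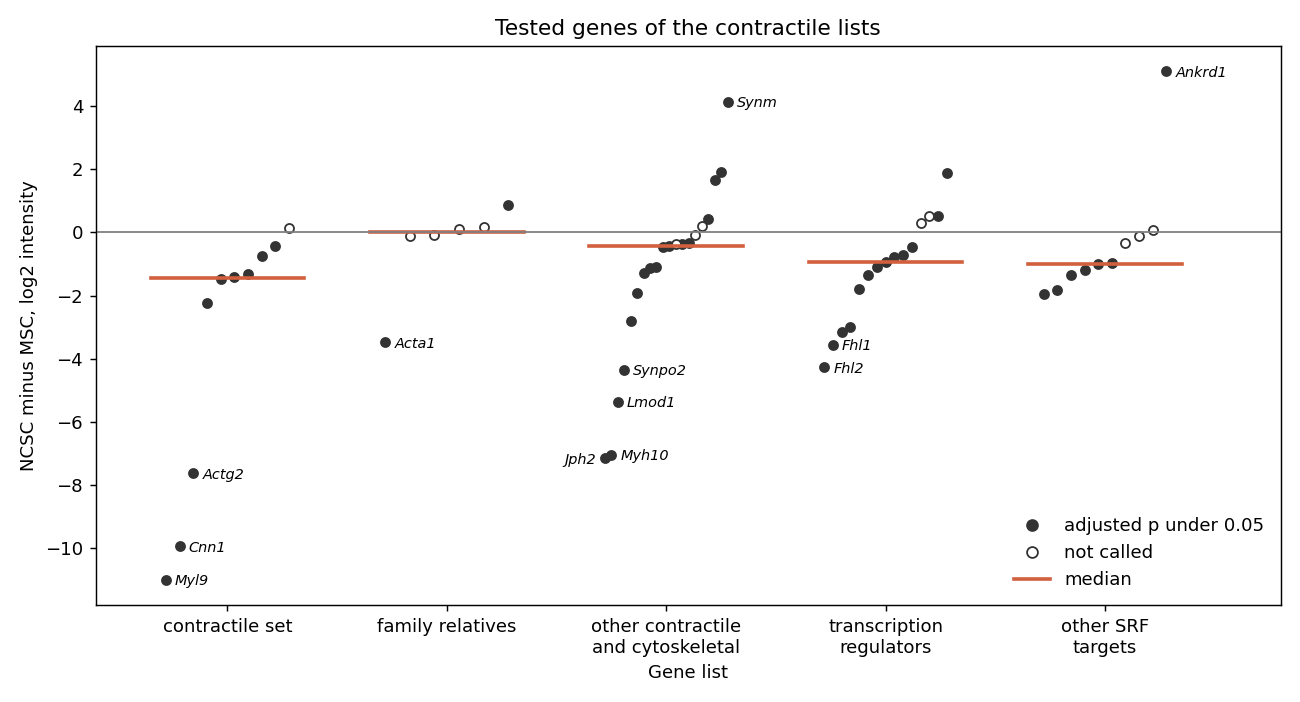
Difference NCSC minus MSC on the log2 scale (vertical axis) of the tested genes of 5 lists (horizontal axis), each gene by its kept probe set of highest mean; filled points were called and orange lines are medians. The median is -1.44 in the contractile set and 0.03 in the family relatives; a gene under the limit in 1 cell type has only a bound.

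Markers of other cells that express contractile genes were looked at beside these results. Pericyte and vascular markers did not move as a block. Of 8 such genes Rgs5, Kcnj8, Abcc9 and Myh11 were under the limit on all arrays, Notch3 was at least 48.5-fold lower, and Pdgfrb, Cspg4 and Mcam rose by 0.62, 2.31 and 0.96. Notch3 passed the filter through MSC alone and had to differ. The summed log2 level of the 8 genes was 51.2 to 52.5 in MSC and 48.1 to 50.1 in NCSC, and its part in the fall of the contractile genes was not tested. All 8 skeletal and 7 cardiac muscle markers and all 6 endothelial markers were under the limit on all arrays. Of the blood cell markers, Ptprc, the pan-leukocyte antigen, was at the floor, and Csf1r was not called (0.54 ± 0.32). Cd14, below the filter, read 4.63, 3.96 and 5.15 in MSC and 2.16 to 2.19 in NCSC. The summed log2 level of the blood markers was 15.7 to 17.7 in MSC and 14.7 to 15.5 in NCSC, and its part in the results was not tested.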

How the data were processed

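Gene expression was measured on 6 Affymetrix arrays, 3 of MSC and 3 of NCSC. The authors deposited an intensity per probe set from GCRMA (version not given), per the submitters' processing notes. GCRMA corrects background by probe sequence, makes arrays comparable by quantile normalization and summarises each set over its probes. They ran from 4.36 to 116597, so they were read as linear and taken to log2, with no further normalization. No genome build is given in the sources used here. Probe sets were named through the platform annotation, with symbols updated by gene identifier (34741 of 34945 matched RefSeq). A probe set was kept when at least 3 arrays exceeded 4 on the log2 scale, which left 18640. Between 45.2% and 45.5% of all probe sets exceeded that limit on each array, and the number of arrays limits the precision.

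NCSC and MSC were compared with limma 3.58.1 in R 4.3.3 (lmFit, eBayes, two-sided, no covariate), adjusted over all kept probe sets by the Benjamini-Hochberg method and called at an adjusted p under 0.05. The fit was tested on simulated data. Where the dimmer group's mean was at or under the limit, the fold is a bound, written "at least", with the dimmer values raised to 4. Paralogue pairs were tested by exact permutation of arrays. Named genes were all members, those with the 3 largest and 3 smallest differences among the called genes of each other list, all regulators, and the defining markers. Myl12a, Actb and Actg1 were named after their values were seen. The members and lists were chosen with earlier results of these data known, and the CArG-like motif was added after the data were seen. Protein sequences were not analysed here. Alternatives covered the filter, the floor, normalization, the model, array weights, the replicate block, the summary by gene and each array left out. The result of 1 further gene list is not reported here, so the lists shown are not all that were run and give no picture of contractile regulation as a whole.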

Additional observations from a re-analysis of the deposited data

How the results depend on the processing

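Counts of called member probe sets and genes, of genes on the other lists and of all probe sets stayed within 1.5 times of their values under every setting run, and the 5 paralogue pairs kept their direction. Member probe sets called lower numbered 9 without the filter and 9 to 12 with 1 array left out, and member genes called lower numbered 7 and 7 to 9. Of 28 changes of call or direction among single member probe sets, 6 were reversals, all in Cnn3. Set 1456380_x_at was -0.0248 with array medians aligned, and -0.0059 to 0.0856 with 1 array left out. Set 1455570_x_at was 0.0462 with array weights, 0.00598 with quantile normalization, 0.0602 without MSC 2 and NCSC 3 together, and -0.0767 to 0.0622 with 1 array left out. Without the filter, Tagln2 (1439407_x_at) and Mylk (1425506_at) lost their calls (adjusted p = 0.0723 and 0.0764). Leaving out sets with the suffix _s_at or _x_at, a choice made after seeing the data, left 11 sets with 9 called lower. The bound on the Acta2 to Actg2 shift with the mean of the Acta2 sets was likewise chosen after seeing the data.

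Deviations of same-numbered arrays correlated at -0.094, 0.066 and 0.044, and those of different-numbered arrays at -0.100 to 0.108. With 3 arrays of each cell type these values cannot decide whether the replicate numbers pair the arrays. With the replicate block 11 member probe sets and 8 member genes were called lower, Tagln2 (1439407_x_at) was not called (adjusted p = 0.0544) and Mylk (1425505_at) was (0.0431). Of the regulators, Tead3 was not called with the block (0.0539) and Elk1 was (0.0343). The smallest p of a paired test is 0.25.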
